A study of Syntrichia ruralis with 8 samples.

Results

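Tortula ruralis, or Syntrichia ruralis, is a moss that survives drying. Polysomal RNA of its slow-dried gametophytes, the leafy green plants, was set against polysomal RNA of hydrated gametophytes on 2 two-colour cDNA arrays. The arrays were chosen by their source name, which gives the polysomal RNA fraction of slow-dried plants, and are 2 of the 8 arrays of the series. The other 6 arrays compared slow-dried plants in total RNA, and rapid-dried plants rewetted for 2 h in polysomal and in total RNA, each with hydrated plants. The slow-dried plants had been kept hydrated for 48 h and then dried for 24 h at 20 °C and 66% relative humidity over a saturated sodium nitrite solution, and their weight had levelled off at 20% of the fresh weight within 6 h. The hydrated plants had been kept hydrated for the same 48 h and were not dried. The labels name no mutation or transgene.

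On array 1 the slow-dried RNA carried the dye Cy3 and the hydrated RNA Cy5, and on array 2 the dyes were exchanged. The design text describes 2 separate RNA preparations for such a pair, each from many pooled plants of several clumps, so the p-values measure the spread between pooled preparations and arrays and not between single plants. The labels repeat for these samples the extraction of total RNA and do not describe how polysomes were isolated. RNA came from whole gametophytes, in which fewer cells of a type and less RNA per cell cannot be told apart. A fixed amount of poly(A) RNA was labelled, so the ratios give the make-up of the polysomal RNA and not its amount per plant.

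Polysomal RNA is messenger RNA that carries several ribosomes, and its make-up shows which transcripts are held in the translated pool. Translation itself was not measured. In Tortula ruralis, protein synthesis stops as the plants dry, and transcripts kept in the dried plant can be taken up by ribosomes on rewetting. Transcripts known as rehydrins, with the prefix Tr in the clone names, were first described in rehydrated plants of this moss.

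Each array held 768 clones in 3 spots each. Of these, 209 carried an annotation and 559 did not, and all but the added controls came from a subtracted library, which does not sample the genome evenly. The slow-dried signal lay well above background, that is, more than 2 background SD above it, for 93.0% of clones on array 1 and 90.5% on array 2, and the hydrated signal for 94.1 and 85.7%. In all 4 channels 646 clones did so. Across the 768 clones array 1 and array 2 correlated in their log2 ratios at r = 0.92 (Spearman's rho 0.89), as a description over clones that share both arrays. The median absolute difference between the arrays was 0.21 on the log2 scale, the 90th percentile was 0.57, and 13 clones differed by more than 1. One array of the rehydrated polysomal pair has a title that says slow-dried and a source name and protocol that say rapid-dried and rehydrated. It enters the pooled error and the comparison with rehydrated plants, and counts without it are given below.

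Ratios are given on 2 scales. On the typical-clone scale, loess normalization set the typical clone of each array at 0. A fall there means a slow-dried/hydrated ratio below that of the typical clone. On the control scale each array was shifted so that 4 ribosomal protein clones, L17, S14, S16 and S3, which the labels describe as unaffected by treatment, averaged 0. The design text names L23 and L15 in place of L17 and S3, so the identity of those controls is not settled. The 4 clones lay 1.34 below the typical clone on array 1 and 1.48 below it on array 2, as log2 shifts of -1.34 and -1.48, so that every clone stands 1.41 higher on the control scale than on the typical-clone scale. Values below are log2(slow-dried/hydrated) on the typical-clone scale with the standard error of a limma fit over all 8 arrays, n = 2 arrays, unless the control scale is named. That error pools the spread over the series and is not the spread of the pair alone. Levels are normalized intensities in scanner units, given for array 1 and then array 2, and can pass the scanner's maximum after normalization. Remarks on overlap compare levels across both arrays as a description, while the tests use the ratio within each array. A clone was called when its limma p-value, adjusted by the Benjamini-Hochberg method over 768 clones, was below 0.05.

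Slow drying changed the make-up of polysomal RNA in both directions. Transcripts of 161 clones (21% of those tested) rose and those of 188 (24.5%) fell relative to the typical clone, and 419 were not called. All 349 called clones moved the same way on both arrays. Of the clones over 2-fold higher 80 of 82 were called, and of those over 2-fold lower 98 of 100. Without array 1, 54 rises and 75 falls were called, and without array 2, 60 and 77. The pooled fit then takes the lone array to vary like the other groups. No rise or fall turned in either case, which could hardly happen, since all 349 moved the same way on both arrays.

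The control scale places every clone higher by the same amount, so it can add rises and remove falls but not the reverse. On it 627 clones (81.6%) were higher, the 161 rises among them, and 20 were lower. The 20 (2.6%), of which 8 were annotated, were lower on both scales. Of the other 168 falls, 115 were not called on the control scale and 53 were higher than the controls there, 18 of them annotated. Of the 419 clones not called on the typical-clone scale, 413 were higher on the control scale. The authors' deposited table gives ratios on a control scale, with medians of 2.52 and 2.44 and values above 1 for 701 of 768 and 654 of 767 clones on arrays 1 and 2. In that table all 161 risen clones exceeded 1 on both arrays and all 20 clones lower on both scales were below 1 on both. With the same fit on those ratios, 149 of the 161 were called higher and 13 of the 20 lower.

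**Figure D1:**
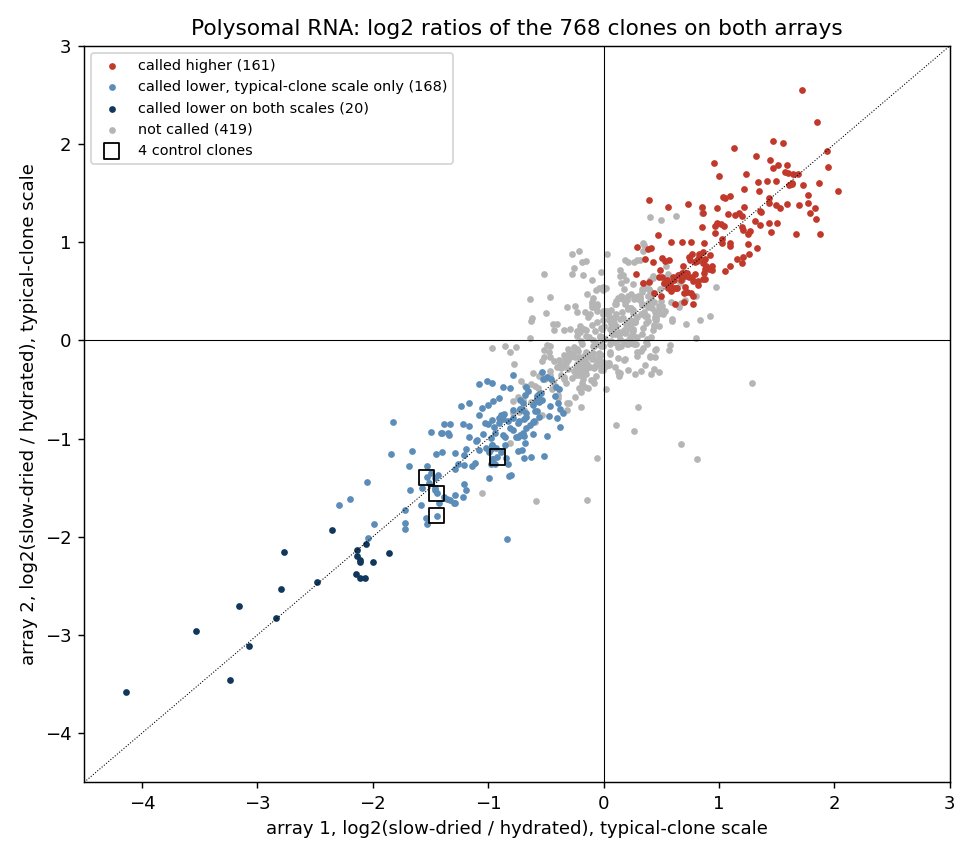
Log2(slow-dried/hydrated) of the 768 clones on array 1 (x axis) and array 2 (y axis), typical-clone scale, 1 point per clone, coloured by call, with the 4 control clones boxed. The points follow the dotted line of equal ratios (r = 0.92), the 161 rises and 188 falls lie in opposite corners, and the control clones lie among the 168 falls that were called on the typical-clone scale alone.

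The shares of rises and falls were counted apart for annotated clones and the rest. Of the annotated clones 26 rose and 67 fell (12.4 and 32.1%), against 135 and 121 (24.2 and 21.6%) of the unannotated ones. The difference in shares was not tested. Most of the risen transcripts therefore have no name here.

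The photorespiratory enzymes glycolate oxidase and catalase rose together. Glycolate oxidase (USD-422), which oxidizes glycolate in peroxisomes and releases hydrogen peroxide, had levels of 1861 and 1390 in slow-dried polysomal RNA, against 744 and 377 in hydrated. The slow-dried levels were above both hydrated levels, and the hydrated signal was well above background on 1 of the 2 arrays. The difference was 1.60 ± 0.34 (adjusted p = 0.00981, limma). Catalase (USD-265), which breaks that peroxide down, had 10088 and 16945 in slow-dried polysomal RNA, against 4586 and 6965 in hydrated, without overlap, a difference of 1.21 ± 0.18 (adjusted p = 0.00241, limma). The third clone of the photorespiration list, a ferredoxin-dependent glutamate synthase (USD-11), which returns ammonia to amino acids, was at -0.47 ± 0.19 and was not called (adjusted p = 0.0925, limma).

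Among proteins named for protection of dried cells, the members went in different directions. The dehydrin LTI30/XERO2 (USD-107), one of the hydrophilic proteins that accumulate in drying plant cells, had 10235 and 17022 in slow-dried polysomal RNA, against 4395 and 6641 in hydrated. Both slow-dried levels lay above both hydrated ones, and the fit gave 1.29 ± 0.18 (2.44-fold, adjusted p = 0.00192, limma). The rehydrin Tr-217 had 7274 and 9416 in slow-dried polysomal RNA, against 3138 and 4309 in hydrated, also without overlap, at 1.17 ± 0.19 (adjusted p = 0.00321, limma). A cDNA clone of rehydrin Tr-288 (USD-231) rose by 0.83 ± 0.15, with 5345 and 4294 in slow-dried and 2790 and 2619 in hydrated polysomal RNA.

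Other members of that list fell. The rehydrin Tr-416 had 1423 and 2258 in slow-dried polysomal RNA, against 5942 and 9523 in hydrated, a difference of -2.07 ± 0.18 (adjusted p = 0.000642, limma), and it was lower on the control scale too (-0.66 ± 0.27). Tr-421 (-1.01 ± 0.14) and the Lea protein USD-397 (-0.75 ± 0.13) fell relative to the typical clone, while on the control scale Tr-421 was at 0.40 and not called and USD-397 was higher (0.66, adjusted p = 0.033, limma). The Lea proteins USD-161 (0.34 ± 0.17) and USD-165 (-0.26 ± 0.18) and the desiccation-related protein pcc13-62 (USD-468, -0.31 ± 0.17), described from a resurrection plant, were not called. Over the 13 LEA, dehydrin and rehydrin clones, 3 rose, 5 fell and 5 were not called, with a median of -0.26 beside 0.03 over all 768 clones. On the control scale 10 were higher and 1 lower, with a median of 1.15 beside 1.44 over all clones. Of all clones 21% rose, 24.5% fell and 81.6% were higher on the control scale.

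The design text names controls from earlier RNA blots, Tr155, Tr403 and Tr421 as up-regulated, Tr217 and Tr416 as down-regulated and TrCDPK as neutral. In slow-dried polysomal RNA Tr-155 was at -0.14 ± 0.17 and Tr-403 at -0.07 ± 0.24, neither of them called, although both were higher on the control scale (1.27 and 1.33). Tr-403 was well above background in each channel on 1 array only. Tr-217, listed as down, rose on both scales, and Tr-416 fell on both. The calmodulin-like domain protein kinase Tr-cpk, listed as neutral, had 20473 and 23832 in slow-dried polysomal RNA, against 56330 and 68271 in hydrated. It fell by 1.49 on the typical-clone scale (SE 0.16, adjusted p = 0.00102, limma) and was at -0.08 on the control scale, that is, with the ribosomal controls. Its hydrated signal was saturated in 2 of 3 spots on array 1. The treatment and RNA fraction behind the blots are not stated in the design text.

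Early light-inducible proteins, which bind pigment in thylakoids under stress, were represented by 2 clones. ELIPA (USD-274) had 17442 and 15161 in slow-dried polysomal RNA, against 12104 and 10114 in hydrated, and was higher by 0.56 ± 0.15 (adjusted p = 0.0257, limma). ELIPb (USD-305) had 1367 and 1609 in slow-dried and 1083 and 1254 in hydrated polysomal RNA. Its difference of 0.35 was not called, with a 95% interval from -0.46 to 1.15.

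Photosynthesis transcripts were among the deepest falls. Chloroplast carbonic anhydrase (USD-156), which interconverts carbon dioxide and bicarbonate, had 2072 and 855 in slow-dried polysomal RNA, against 36526 and 10250 in hydrated. The groups were far apart on both arrays, and the level was 14.5-fold lower (-3.86 ± 0.18, adjusted p = 0.000223, limma) and also lower on the control scale (-2.45 ± 0.28). Photosystem I subunit III (USD-591), which docks plastocyanin, had 4616 and 11050 in slow-dried polysomal RNA, against 53290 and 86188 in hydrated (-3.25 ± 0.21, control scale -1.84 ± 0.29). A chlorophyll a/b-binding protein of the light-harvesting complex (USD-180), which gathers light for the photosystems, had 7080 and 9549 in slow-dried polysomal RNA, against 63288 and 62178 in hydrated (-2.93 ± 0.39, control scale -1.52 ± 0.31). Its hydrated signal was saturated in 2 of 3 spots on array 1. Of the 5 clones for photosynthesis and chloroplast proteins 4 fell and none rose, with a median of -2.93, and 3 were lower on the control scale. The fifth, the chloroplast import component Toc125 (USD-548), was at -0.27 ± 0.34, was not called, and was well above background on 1 array in each channel.

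The other annotated transcripts that were lower on both scales were of mixed roles. A 16 kDa membrane protein (USD-275) had 2874 and 2509 in slow-dried polysomal RNA, against 27082 and 27618 in hydrated, 10.2-fold lower (-3.35 ± 0.17). Microsomal glutathione S-transferase 3 (USD-460), which conjugates glutathione to reactive lipids in membranes, had 1643 and 1770 in slow-dried polysomal RNA, against 11728 and 12570 in hydrated (-2.83 ± 0.16). A chitinase (USD-667), an enzyme that cleaves chitin, had 3570 and 6846 in slow-dried polysomal RNA, against 15657 and 31363 in hydrated (-2.16 ± 0.18).

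For these clones slow-dried and hydrated levels did not overlap. The soluble epoxide hydrolase (USD-766), which opens epoxides to diols, had 1123 and 1001 in slow-dried polysomal RNA, against 4488 and 4797 in hydrated (-2.13 ± 0.16). Their control-scale values were -1.94 (USD-275), -1.42 (USD-460), -0.76 (USD-667) and -0.72 (USD-766). The 12 unannotated clones of this set included USD-188 (-3.09 ± 0.36), USD-390 (-2.66 ± 0.33), USD-319 (-2.47 ± 0.18), USD-84 (-2.46 ± 0.23), USD-432 (-2.26 ± 0.16) and USD-714 (-2.26 ± 0.18). Rebuilding the control scale without L17, S14, S16 or S3 in turn left 19, 21, 18 and 21 clones lower on both scales, and leaving out array 1 or array 2 left 5 and 10.

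**Figure D2:**
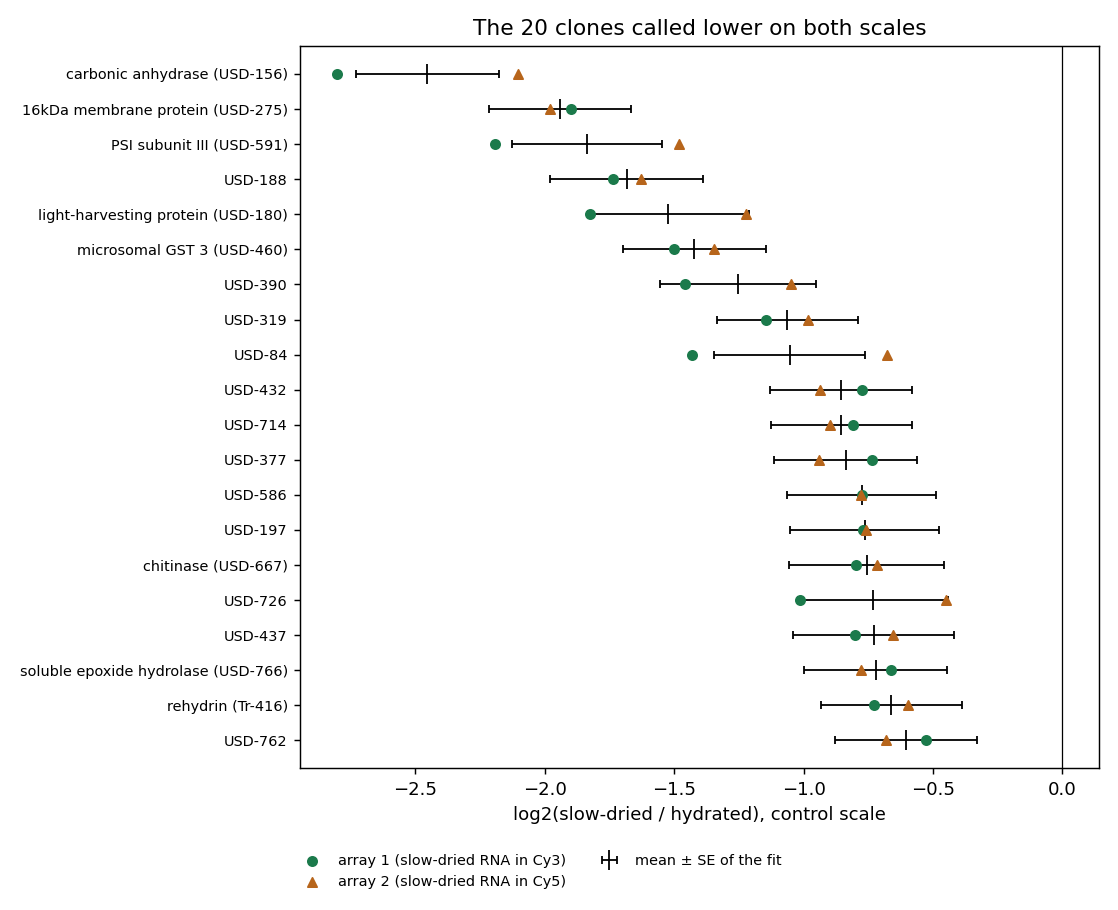
Log2(slow-dried/hydrated) on the control scale for the 20 clones called lower on both scales, with array 1 as circles, array 2 as triangles and the mean ± SE of the fit. All points of both arrays lie below 0, from carbonic anhydrase at a mean of -2.45 to clones near the controls such as Tr-416 at -0.66.

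Of the 26 annotated rises, the hypothetical protein at5g13610 (USD-450) was the largest. It had 2677 and 2873 in slow-dried polysomal RNA, against 743 and 613 in hydrated, 4.11-fold higher (2.04 ± 0.17, adjusted p = 0.000642, limma), and its hydrated signal was well above background on 1 array. An alpha/beta fold hydrolase (USD-117) had 7961 and 9710 in slow-dried polysomal RNA, against 2571 and 3213 in hydrated, 3.06-fold higher (1.61 ± 0.13, adjusted p = 0.000599, limma). Neither clone's levels overlapped between the groups.

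Membrane and lipid functions were also among the rises. VAMP714 (USD-109), a SNARE protein of vesicle fusion, had 22406 and 30231 in slow-dried polysomal RNA, against 7753 and 11899 in hydrated (1.44 ± 0.19, adjusted p = 0.00186, limma). All 3 of its slow-dried spots were saturated on array 2. A putative serine decarboxylase (USD-329), which makes ethanolamine for membrane lipids, had 2312 and 3659 in slow-dried polysomal RNA, against 899 and 1481 in hydrated (1.33 ± 0.18, adjusted p = 0.0019, limma). A protein with a phosphate acyltransferase domain (USD-67) rose by 1.12 ± 0.13 and a MATE efflux protein (USD-126), of a family that exports small molecules, by 0.72 ± 0.15. Slow-dried levels of these clones exceeded hydrated levels on each array.

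The lists of membrane and lipid genes as a whole did not lean upward on the typical-clone scale. Over all clones 21% rose and 24.5% fell there, with a median of 0.03. Of 17 clones for membrane transport and vesicles 2 rose and 5 fell, with a median of -0.01. Of 12 clones for lipid and ethanolamine metabolism 2 rose and 1 fell, with a median of -0.18. The cell wall and carbohydrate list (10 clones) had 0 rises and 2 falls at a median of -0.18, and both trehalase clones, for the enzyme that splits trehalose, were not called (USD-539, -0.18 ± 0.13, and USD-578, -0.53 ± 0.27).

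Mitochondrial and branched-chain metabolism contributed 2 rises. A grim19-like protein (USD-160), whose homologues belong to complex I of the respiratory chain, had 16647 and 16277 in slow-dried polysomal RNA, against 7244 and 7308 in hydrated (1.18 ± 0.15, adjusted p = 0.00147, limma). The alpha subunit of 2-oxoisovalerate dehydrogenase (USD-54), which degrades branched-chain amino acids, had 8039 and 9906 in slow-dried polysomal RNA, against 4411 and 4041 in hydrated (1.08 ± 0.15, adjusted p = 0.0019, limma). Both were separated between groups on both arrays. On the control scale 20 of the 23 clones for primary metabolism and mitochondria were higher and none lower (median 1.37). Over all clones 81.6% were higher there, with a median of 1.44. On the typical-clone scale 2 of the 23 rose and 6 fell (median -0.04), beside 21% rises and 24.5% falls over all clones. The falls of this list included glucose-6-phosphate dehydrogenase (USD-129), which feeds the pentose phosphate pathway (-1.63 ± 0.15, control scale -0.22), and the flavoprotein subunit of succinate dehydrogenase (USD-421, -1.41 ± 0.16, control scale 0.0011). Neither was called on the control scale.

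The remaining annotated rises were smaller or of unclear role. A proline-rich protein (USD-569) rose by 1.17 ± 0.14 and a hypothetical protein of the y5175_arath type (USD-204) by 1.11 ± 0.13. ERD4 (USD-514), named for its early response to dehydration, had 1061 and 1136 in slow-dried polysomal RNA, against 788 and 653 in hydrated (0.61 ± 0.17, adjusted p = 0.0268, limma). The second ERD4 clone (USD-81) was at 0.76 ± 0.36 and was not called (adjusted p = 0.136, limma). Annexin a7 (USD-715), a calcium-dependent membrane binding protein, rose by 0.57 ± 0.16 and the mitogen-activated protein kinase NRK1 (USD-269) by 0.56 ± 0.14. An endonuclease and exonuclease domain protein (USD-119) rose by 0.50 ± 0.17, just inside the threshold (adjusted p = 0.0499, limma).

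To complete the 26, and named only after their values were seen, a bax inhibitor motif protein (USD-159) rose by 0.73, a secreted protein (USD-363) by 0.71, spherulin-1B precursor (USD-256) by 0.66, a rice hypothetical protein (USD-96) by 0.64 and a cell surface protein (USD-387) by 0.61. The largest unannotated rises were in USD-34 (2.14 ± 0.42), USD-560 (1.93 ± 0.27), USD-732 (1.86 ± 0.17), USD-244 (1.78 ± 0.21), USD-654 (1.78 ± 0.38) and USD-324 (1.75 ± 0.19). USD-560 had 17563 and 7349 in slow-dried polysomal RNA, against 4575 and 1931 in hydrated. Its levels differed between the arrays by more than its ratios did, which were 1.94 and 1.93.

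**Figure D3:**
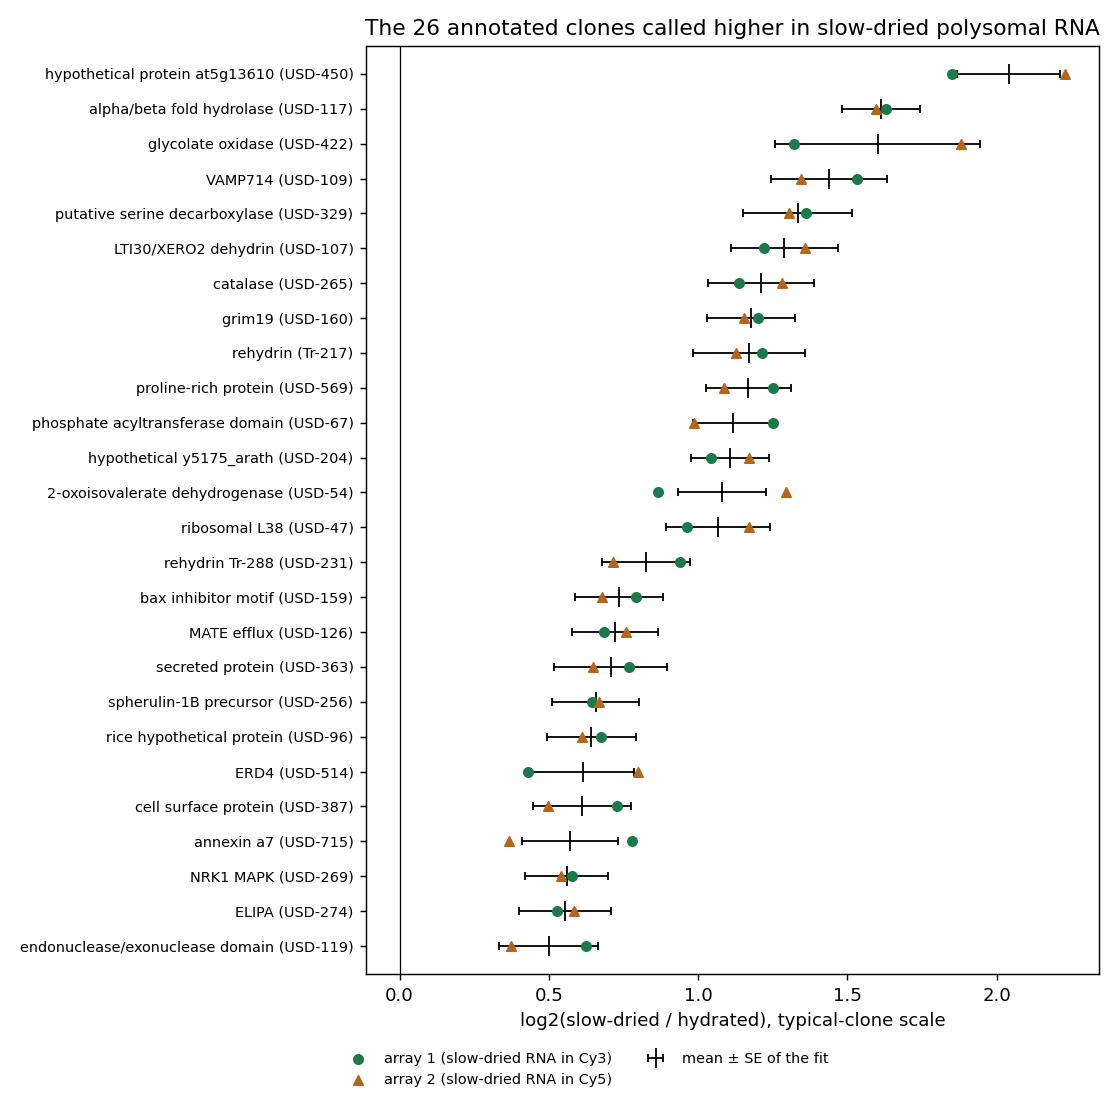
Log2(slow-dried/hydrated) on the typical-clone scale for the 26 annotated clones called higher, with array 1 as circles, array 2 as triangles and the mean ± SE of the fit. Both arrays lie above 0 for every clone, from USD-450 at a mean of 2.04 to USD-119 at 0.50.

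Ribosomal protein transcripts, which code for the ribosome itself, mostly lay below the typical clone. The control clones fell by 1.62 (S3), 1.50 (L17), 1.46 (S14) and 1.05 (S16) on the typical-clone scale, with standard errors of 0.17, 0.14, 0.19 and 0.30. The 95% interval of S16, from -1.77 to -0.33, includes the values of the other 3. Apart from the controls, 10 of the other 18 ribosomal clones fell, from -0.63 ± 0.16 for L35 (USD-264) to -1.15 ± 0.14 for L28 (USD-361), 7 were not called and 1 rose. The riser was L38 (USD-47), with 6131 and 8935 in slow-dried polysomal RNA, against 3145 and 3971 in hydrated (1.07 ± 0.17, adjusted p = 0.00354, limma). The median of the 18 was -0.65, and on the control scale 10 of them were higher, none lower, with a median of 0.76. Over all clones 24.5% fell and 21% rose, and on the control scale 81.6% were higher (median 1.44).

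Of 3 translation factor clones 1 fell, beside 24.5% of all clones. The eIF4-gamma/eIF5/eIF2-epsilon domain protein (USD-379), of the family of initiation factors, fell by 1.48 (SE 0.17, adjusted p = 0.00108, limma), at -0.08 on the control scale. Elongation factor 1-alpha (USD-189, -0.33 ± 0.14) and elongation factor 2 (USD-356, -0.08 ± 0.20), which carry out chain elongation, were not called.

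Of the 5 chaperone and peptidyl-prolyl isomerase clones 3 fell and none rose (median -1.30), beside 24.5% falls and 21% rises over all clones. Relative to the control clones 2 of the 5 were higher and none lower (median 0.11), beside 81.6% higher over all clones (median 1.44). The isomerase rof1 (USD-630), which binds Hsp90 in Arabidopsis, had 788 and 872 in slow-dried polysomal RNA, against 3250 and 3515 in hydrated (-2.03 ± 0.21, adjusted p = 0.000882, limma), and just missed the threshold on the control scale (-0.62, adjusted p = 0.0522, limma). The heat shock cognate Hsp70 (USD-511), a general folding helper, was at -1.30 ± 0.18 and Hsp90 (USD-414) at -1.43 ± 0.31, with 0.11 and -0.02 on the control scale. The 2 arrays gave -0.84 and -2.03 for Hsp90, whose slow-dried signal was well above background on 1 of them.

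Among 9 protein degradation clones 5 fell and none rose, with a median of -0.72, beside 24.5% falls and 21% rises over all clones. The 5 included serine carboxypeptidase (USD-186, -1.50 ± 0.17), a vacuolar aspartic proteinase (USD-496, -1.49 ± 0.19), which work in the vacuole, and a protease annotated on a hypothetical protein (USD-279, -1.47 ± 0.15). Relative to the control clones 5 of the 9 were higher and none lower (median 0.68), beside 81.6% higher over all clones (median 1.44).

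In the antioxidant and redox list and the aldehyde dehydrogenase and glyoxalase list, only catalase was called higher on the typical-clone scale. Stromal ascorbate peroxidase (USD-167), which removes hydrogen peroxide in chloroplasts, was at 875 and 912 in slow-dried polysomal RNA, against 2473 and 2318 in hydrated (-1.42 ± 0.21, adjusted p = 0.00243, limma; control scale -0.01). The dehydroascorbate reductase clones, for the enzyme that regenerates ascorbate, were not called (USD-154, 0.51 ± 0.18, and USD-202, 0.01 ± 0.16). Nor were a glutathione S-transferase (USD-690, 0.66 ± 0.26) and an H-type thioredoxin (USD-658, -0.76 ± 0.31). Over the 9 antioxidant and redox clones 1 rose, 2 fell and 6 were not called, with a median of 0.01. Of all clones 21% rose and 24.5% fell. Relative to the control clones 7 of the 9 were higher, both dehydroascorbate reductase clones among them, and 1 was lower (median 1.42). That is close to all clones, of which 81.6% were higher on that scale (median 1.44).

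Aldh21A1 (USD-30), an aldehyde dehydrogenase first described in this moss, had 4850 and 6253 in slow-dried polysomal RNA, against 4660 and 5749 in hydrated. The slow-dried level was slightly above the hydrated one within each array. The difference of 0.09 was not called, with a 95% interval from -0.25 to 0.43. Mitochondrial aldehyde dehydrogenase (USD-364) fell by 0.92 (SE 0.14, adjusted p = 0.00307, limma), with 0.49 on the control scale, where it was not called. Of the 5 aldehyde dehydrogenase and glyoxalase clones 3 fell and none rose (median -0.92), beside 24.5% falls and 21% rises over all clones. Relative to the control clones 2 of the 5 were higher, Aldh21A1 (1.50) among them, and none lower (median 0.49). Of all clones 81.6% were higher on that scale (median 1.44).

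Among signalling transcripts, a protein phosphatase 2C (USD-542), of the family that holds back abscisic acid signalling in flowering plants, had 1011 and 699 in slow-dried polysomal RNA, against 3339 and 2530 in hydrated (-1.79 ± 0.13, adjusted p = 0.000492, limma). SnRK1-interacting protein 1 (USD-543), named for binding a kinase of energy sensing, was at -1.47 ± 0.15. Their control-scale values of -0.38 and -0.06 were not called. The 13 kinase and phosphatase clones comprised 2 rises, 4 falls and 7 clones not called, with a median of -0.41, beside 21% rises and 24.5% falls over all clones. Relative to the control clones 8 of the 13 were higher and none lower (median 1.00), beside 81.6% higher over all clones (median 1.44).

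In the list named for abscisic acid, dehydration, cold and senescence, 1 of 14 clones rose, 4 fell and 9 were not called (median -0.19, control scale 1.22). Over all clones 21% rose and 24.5% fell (median 0.03, control scale 1.44). Senescence-associated protein 12 (USD-38) was among the 5 clones whose arrays differed most with all channels well above background. Its slow-dried levels were 4292 and 3519, against hydrated levels of 1763 and 4751, so that array 1 gave 1.28 and array 2 gave -0.43. Of the smaller lists, 2 of 5 transcription and RNA-binding clones fell and none rose, and neither of the 2 cytoskeleton clones was called. Relative to the control clones 3 of the 5 and both cytoskeleton clones were higher, beside 81.6% of all clones, and none was lower.

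**Figure D4:**
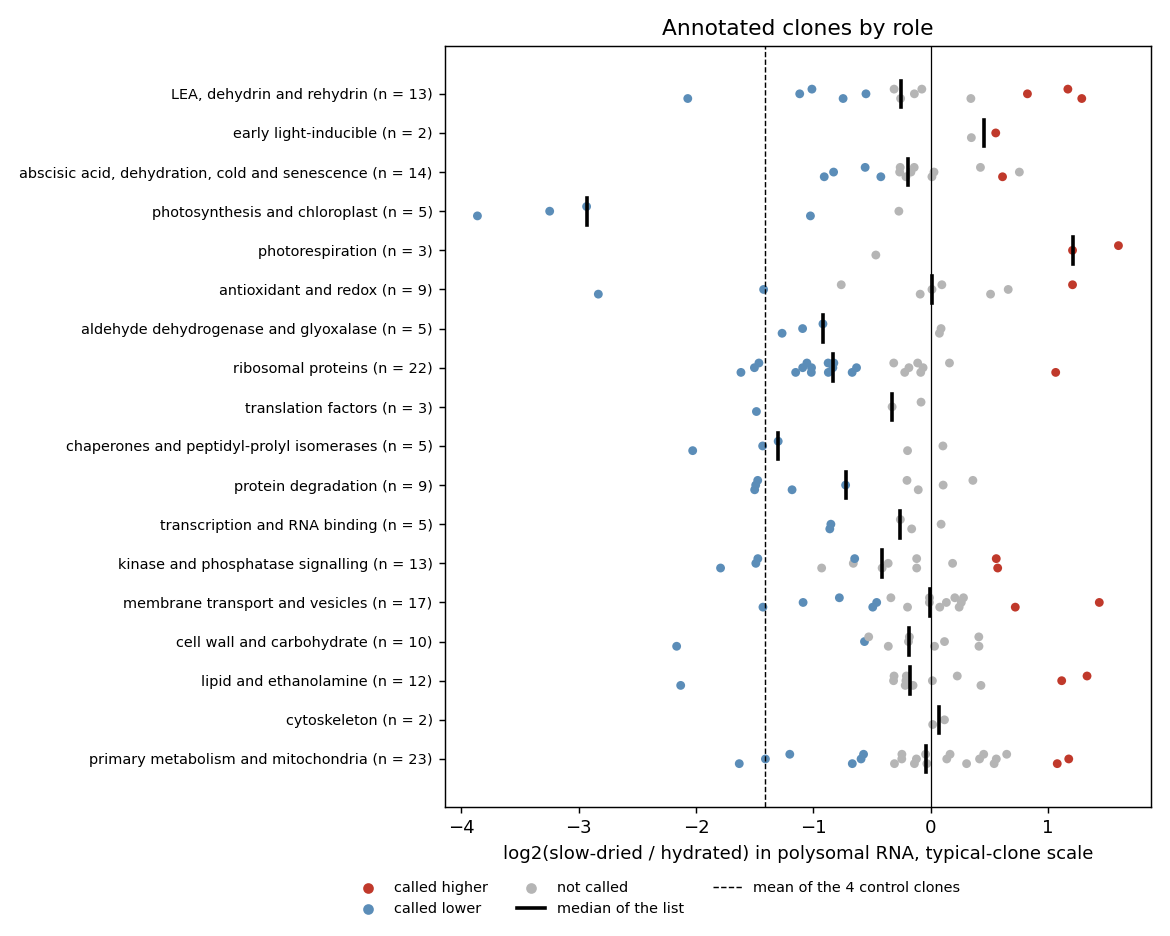
Log2(slow-dried/hydrated) of the annotated clones in polysomal RNA by list, typical-clone scale (x axis), 1 point per clone, coloured by call, with the median of each list as a bar and the mean of the 4 control clones as a dashed line at -1.41. Photosynthesis and chloroplast clones have a median of -2.93, left of the controls, photorespiration clones one of 1.21, and most other medians lie between the controls and 0.

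Several genes were carried by more than one clone, and the clones did not always move together. L38 was higher in USD-47 (1.07 ± 0.17) and not called in USD-194 (-0.31 ± 0.28). The control clone S3 was at -1.62, while USD-357, annotated as S3-like, was at -0.08 and not called. On the control scale S3 was at -0.21 and not called, and USD-357 was higher (1.32). The alpha/beta fold hydrolase was higher in USD-117 (1.61 ± 0.13) and not called in USD-150 (0.03 ± 0.13), and the y5175_arath protein was higher in USD-204 (1.11 ± 0.13) and not called in USD-285 (0.15 ± 0.16). The files used here do not say whether clones with one annotation carry the same gene. Rehydrin Tr-288 was higher in USD-231 (0.83), while the clone printed as Tr-288 was at least 1.54-fold lower (adjusted p = 0.024, limma). It is given as a bound because its slow-dried signal was well above background on neither array and its hydrated signal on 1.

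Few transcripts were measured in one group alone. There were 4 clones well above background in slow-dried polysomal RNA on both arrays and in hydrated on neither, and 1 of them was called. That clone, USD-659, had 408 and 544 in slow-dried polysomal RNA, against 250 and 373 in hydrated, at least 1.31-fold higher (adjusted p = 0.047, limma). Only 1 clone showed the reverse pattern, and it was not called. The unannotated clone USD-682 was at least 2.79-fold higher in slow-dried polysomal RNA (adjusted p = 0.0158, limma), where it was well above background on 1 array, against neither in hydrated. Signals in 30 clones were not well above background in either channel on either array.

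The polysomal response was compared with that of total RNA from slow-dried plants, which came from separate plants. The difference between the log2 ratios, polysomal minus total, was called for 225 clones (29.3%), of which 106 were higher (13.8%) and 119 lower. There were 71 higher and 75 lower ones on the control scale. On the typical-clone scale 20 clones were called higher in polysomal and lower in total RNA of slow-dried plants. The other way round were 16 clones. Without polysomal array 1, 75 differences were called, and without array 2, 62.

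Ribosomal protein transcripts stood higher in the polysomal than in the total response. Of the 22 ribosomal clones 10 had a higher difference and none a lower one, beside 106 and 119 of all 768 clones. Slow-dried over hydrated, the 22 had a median log2 ratio of -0.83 in polysomal RNA and -1.67 in total RNA. None of the 4 control clones was among the 10, and on the control scale 8 of the 10 were called. The differences were 2.69 ± 0.25 for L38 (USD-47), 1.83 ± 0.25 for L30 (USD-182), 1.61 ± 0.21 for L32 (USD-120), 1.60 ± 0.22 for L1 (USD-309), 1.54 ± 0.21 for an S3-like protein (USD-357) and 1.49 ± 0.20 for L13a (USD-325). For L35 (USD-264) it was 1.42 ± 0.22, from a ratio of -0.63 in polysomal and -2.05 in total RNA.

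The largest differences were in transcripts that moved oppositely in the 2 RNA fractions on the typical-clone scale. USD-119 gave 0.62 and 0.37 on the polysomal arrays, against -2.70 and -3.38 on the total RNA arrays, a difference of 3.54 ± 0.24 (adjusted p = 0.0015, limma). USD-450 gave 1.85 and 2.23 on the polysomal arrays, against -0.81 and -1.23 on the total RNA arrays (difference 3.06 ± 0.25). Tr-217 gave 1.21 and 1.13 on the polysomal arrays, against -1.60 and -1.87 on the total RNA arrays (difference 2.91 ± 0.26).

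In these clones the polysomal ratio was above 0 and the total ratio below it on every array, on the typical-clone scale. The same held for the hydrolase USD-117 (difference 2.52 ± 0.18), VAMP714 (USD-109, 2.47 ± 0.27) and 2-oxoisovalerate dehydrogenase (USD-54, 2.15 ± 0.21). Their differences were called on the control scale too. The ratio of VAMP714 on polysomal array 2 rests on saturated slow-dried spots, so its size is uncertain there. VAMP714 and 2-oxoisovalerate dehydrogenase fall outside the rule of the 5 largest and were named after their values were seen.

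Transcripts with the reverse pattern were lower in the polysomal and higher in the total response on the typical-clone scale. On the control scale the polysomal values were -0.06 for USD-279, 0.0011 for USD-421 and -0.38 for USD-542, none of them called. The protease USD-279 gave -1.29 and -1.65 on the polysomal arrays, against 0.99 and 0.82 on the total RNA arrays (difference -2.38 ± 0.21, adjusted p = 0.0015, limma). Succinate dehydrogenase (USD-421) gave -1.22 and -1.60 on the polysomal arrays, against 1.31 and 0.51 on the total RNA arrays (difference -2.32 ± 0.22). The phosphatase USD-542 gave -1.72 and -1.86 on the polysomal arrays, against 0.34 and 0.20 on the total RNA arrays (difference -2.06 ± 0.18).

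Differences were also called for Toc125 (USD-548, -2.43 ± 0.48), with a polysomal signal well above background on 1 array in each channel, and for the printed Tr-288, for which no size is given since its slow-dried polysomal signal was not well above background. Both ELIP clones belonged here, with a polysomal ratio of 0.56 and a total ratio of 1.46 for ELIPA (USD-274), and of 0.35 and 2.02 for ELIPb (USD-305), and both differences were called. Catalase (USD-265) was at 1.21 in polysomal and 2.14 in total RNA, a difference that was called, and the dehydrin LTI30/XERO2 (USD-107) at 1.29 and 1.49, one that was not (adjusted p = 0.576, limma).

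Compared with polysomal RNA of plants that were rapid-dried and rewetted for 2 h, the difference in response was called for 30 clones (3.91%), of which 2 were higher and 28 lower in slow-dried plants. No difference was called on the control scale by limma, nor without array 1, without array 2 or without the rehydrated array whose title goes against its source name. At an unadjusted p below 0.05 there were 182. With only the 4 polysomal arrays in the fit 340 were called, so this count rests on how the spread is pooled. Whether both treatments were set against the same hydrated polysomal RNA is not stated in the sources used here.

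Microsomal glutathione S-transferase 3 (USD-460) gave -2.84 and -2.83 on the slow-dried arrays, against -1.07 and -0.97 on the rehydrated arrays (difference -1.81 ± 0.22, adjusted p = 0.0152, limma). Tr-416 gave -2.06 and -2.08 on the slow-dried arrays, against -0.40 and -0.51 on the rehydrated arrays (difference -1.62 ± 0.25, adjusted p = 0.0281, limma). For both clones the slow-dried ratios lay below the rehydrated ones on every array.

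The kinase Tr-cpk (difference -1.53 ± 0.23), the phosphatase USD-542 (-1.44 ± 0.18) and carbonic anhydrase (USD-156, -1.38 ± 0.26) completed the 5 largest annotated differences. The size for Tr-cpk carries the limit of its saturated hydrated spots on slow-dried array 1. Tr-cpk had a ratio of 0.04 in rehydrated plants, where it was not called. The 2 clones that stood higher in slow-dried than in rehydrated polysomal RNA, USD-324 (1.41 ± 0.27) and USD-131 (1.07 ± 0.18), had no annotation.

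**Figure D5:**
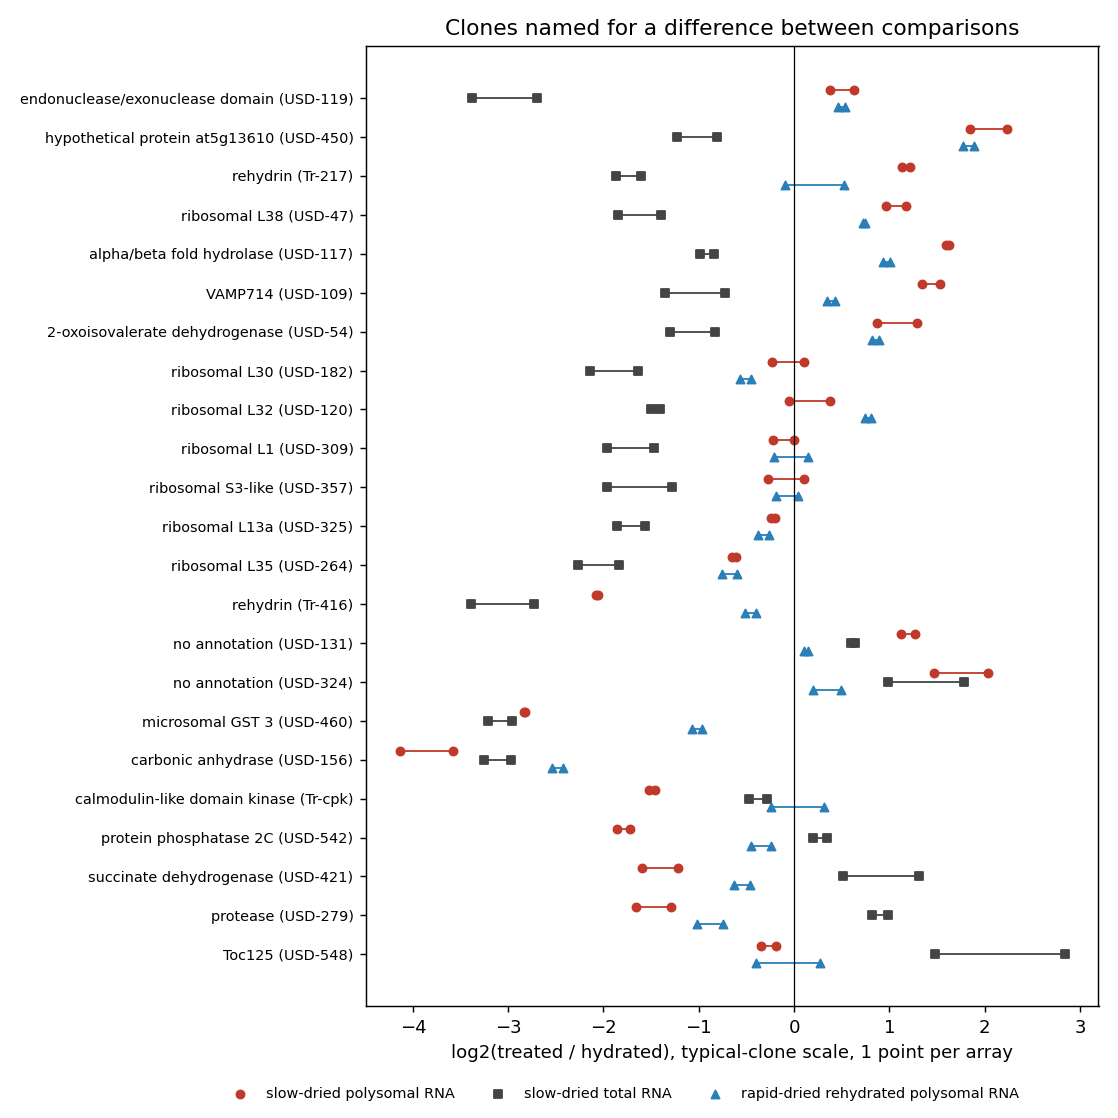
Log2(treated/hydrated) on the typical-clone scale (x axis), 1 point per array and a line between the 2 arrays of a group, for the clones named for a difference between comparisons, with slow-dried polysomal RNA as circles, slow-dried total RNA as squares and rapid-dried rehydrated polysomal RNA as triangles. Clones are ordered by polysomal minus total, from USD-119 (3.54) to Toc125 (-2.43), and for USD-119, USD-450 and Tr-217 the total RNA arrays lie below 0 and the slow-dried polysomal arrays above it.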

How the data were processed

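Per the file headers, the deposited scanner files give the intensity of each spot and of its local background for each dye, in arbitrary units with no normalization, and a spot flag, a score from 0 to 3 of unstated meaning, that was used in 1 alternative. The authors also deposited a table of ratios of treated over hydrated signal, 1 per clone and array, used as an alternative. The sources used here name neither the scanner and image software nor the flag rules.

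The mean signal was corrected by normexp (offset 50) with the median local background, and the log2 ratio was normalized by global loess (span 0.3, 4 iterations). The 3 spots of a clone were averaged, flagged spots included. Limma 3.58.1 in R 4.3.3 fitted all 8 arrays, with 4 group coefficients and a dye term (3 residual and 6.41 total degrees of freedom, empirical Bayes). Differences between comparisons were contrasts of that fit. P-values are two-sided, adjusted by Benjamini-Hochberg over 768 clones and called below 0.05. The shift to the control scale is shared by all clones of an array, and there the fit gave 23.7 total degrees of freedom and a median standard error of 0.29 against 0.18, so calls on the 2 scales do not have equal footing. Replicates were numbered in accession order and pair nothing across groups. At least-folds set the bright group's mean against the detection limit of the dim one. The number of arrays limits the precision. The fit was tested on simulated data with as many rises as falls and most clones unchanged. That test cannot show whether the typical clone itself changed.

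The clones, the 18 lists (patterns in the annotation) and the tests were chosen with earlier results of these data known. Clones were named by rule: the 15 largest annotated rises and falls called with both arrays in the same direction, all annotated clones lower on both scales, up to 6 unannotated clones each way, up to 6 clones of a list, control clones, genes with several clones, up to 8 clones bright in one group alone each way, the 5 with the largest difference between arrays, and for each difference between comparisons the 5 largest annotated each way. Values are printed for part of these, and the rest are given by counts. No sequence of a clone was used here.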

Additional observations from a re-analysis of the deposited data

Results flagged for a closer look

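The effects of slow drying in polysomal and in total RNA, or of slow drying and of rapid drying with rehydration in polysomal RNA, differed for the clones below by a limma test of the difference itself, all with an adjusted p below 0.05. Polysomal minus total was 3.54 (USD-119), 3.06 (USD-450), 2.91 (Tr-217), 2.69 (USD-47), 2.52 (USD-117), 2.47 (USD-109) and 2.15 (USD-54). In ribosomal clones it was 1.83 (USD-182), 1.61 (USD-120), 1.60 (USD-309), 1.54 (USD-357), 1.49 (USD-325) and 1.42 (USD-264). It was -2.43 (USD-548), -2.38 (USD-279), -2.32 (USD-421) and -2.06 (USD-542). Slow-dried minus rehydrated polysomal was -1.81 (USD-460), -1.62 (Tr-416), -1.53 (Tr-cpk), -1.44 (USD-542), -1.38 (USD-156), 1.41 (USD-324) and 1.07 (USD-131). The differences to total RNA given here were all called on the control scale too, and none of the 7 to rehydrated plants was. With the authors' ratios only 6 of the differences to total RNA kept their call. Saturated spots limit the sizes for USD-109 (slow-dried, polysomal array 2) and Tr-cpk (hydrated, slow-dried polysomal array 1).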

How the results depend on the processing

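Counts are of rises, falls, clones lower on both scales, differences to total RNA and differences to rehydrated polysomal RNA, which were 161, 188, 20, 225 and 30. On the control scale there were 627 rises, 20 falls, 146 and 0 differences. Dye-swap normalization, which uses no loess and takes its scale from the control clones, gave 560, 25, 147 and 0, and the authors' ratios 412, 20, 25 and 1. With only the 4 polysomal arrays there were 266 rises and 340 differences to rehydrated plants. Leaving out 1 slow-dried polysomal array gave 54 to 60 rises, 75 to 77 falls, 5 to 10 clones lower on both scales, 62 to 75 differences to total RNA and 0 to rehydrated plants. Without the rehydrated array whose title goes against its source name, an alternative chosen after seeing the data, there were 127 rises, 152 falls, 15 clones lower on both scales and 130 and 0 differences. Other settings left each count within 1.5 times, among them median centring, another offset, no background subtraction, spot medians, filters on dim clones or flags, and no dye term. None of the 161 rises and none of the 20 clones lower on both scales turned under any setting. Of these 20 clones, 17 were still called lower with dye-swap normalization and 13 with the authors' ratios. Settings scaled to the control clones place ratios higher, so they could hardly turn a rise. Leaving out 1 slow-dried polysomal array could hardly turn a call either, since all called clones moved the same way on both. Of the 188 falls, 137 turned on the control scale, 120 with dye-swap normalization, 115 with the authors' ratios and none otherwise.

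Among the falls with printed values, those that turned were at 0.35 (S16), 0.11 (USD-511), 0.0011 (USD-421), 0.40 (Tr-421), 0.49 (USD-364), 0.78 (USD-264), 0.66 (USD-397) and 0.26 (USD-361) on the control scale. With dye-swap normalization they were at 0.034 (L17), 0.042 (S14), 0.22 (S16), 0.064 (USD-511), 0.14 (Tr-421), 0.34 (USD-364), 0.047 (USD-543), 0.083 (USD-496), 0.85 (USD-264), 0.85 (USD-397) and 0.36 (USD-361). With the authors' ratios they were at 0.047 (S14), 0.16 (S16), 0.087 (USD-511), 0.19 (Tr-421), 0.34 (USD-364), 0.037 (USD-543), 0.080 (USD-496), 0.88 (USD-264), 0.88 (USD-397) and 0.38 (USD-361). All 3 settings take their scale from the control clones. Loess within printed blocks was not run, since the files used here give no block. No paired analysis was possible because the labels give no replicate numbers, and each array already holds both RNAs. Signal over background limits clones outside the 646 that were well above it in all 4 channels.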
